A study of Mus musculus with 30 samples.

Results

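The retinal pigment epithelium (RPE) of C57BL/6 wild-type (B6 WT) mice was compared with macrophages grown from the bone marrow of B6 WT mice (BMDMs), as a comparison of 2 kinds of phagocyte within a strain. The members were every B6 WT library of the series by its label, 6 of RPE and 3 of BMDMs, 9 of 30 libraries in all. The series itself was made to compare 3 *Mertk* knockout lines, *Mertk*-/-V1, *Mertk*-/-V2 and *Mertk*-/-V3, with B6 WT in each tissue, and its 21 knockout libraries enter only at the end. All 9 libraries came from C57BL/6J mice with a wild-type genotype, and no library of this comparison carried a deletion or a drug treatment. RPE was taken straight from the eye at postnatal day 25: the posterior eyecup was shaken so that RPE cells came loose and were spun down, a wash that can also hold other cells of the eye. BMDMs were bone marrow cells of adult mice grown in medium conditioned by L929 cells, a fibroblast line that releases the growth factor CSF1, and had the label of macrophage differentiation. Tissue, age, culture and sequencing table therefore differed together between the groups and cannot be told apart.

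The RPE is a pigmented sheet of cells that do not divide and that faces the photoreceptors. Each RPE cell takes up the membrane discs that rods and cones shed from their outer segments every day, digests them in lysosomes and returns the retinal chromophore through the visual cycle. Macrophages are mobile cells of the blood lineage that take up dying cells, microbes and antibody-coated particles. Both read phosphatidylserine on their target through bridging molecules such as GAS6 and protein S and the TAM receptor kinases TYRO3, AXL and MERTK. Loss of MERTK is known for defects of outer segment uptake in the RPE and of apoptotic cell uptake in macrophages. The swallowed particle then passes through phagosome maturation, acidification by the V-ATPase and digestion by lysosomal hydrolases.

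Levels are given as reads per 1e6 reads (CPM) after the reads of both tables had been recovered and scaled together, and levels of different genes are compared only as RPKM, which divides by exon length. Differences are log2 fold changes, RPE minus BMDM, with their standard errors (SE), on the log2(CPM + 0.5) scale. A gene was called higher at an adjusted p under 0.05 (limma, Benjamini-Hochberg over all genes tested) and a fold change of 2.38 or more in that direction. A gene was called of like level where the 95% interval of its log2 fold change lay within -1 and 1. Libraries held 14137666 to 30196674 reads in RPE and 21187031 to 24869776 in BMDMs, and 25983 to 27815 and 19915 to 20394 genes had a read.

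The labelled cells were present in both groups, and the RPE libraries also held RNA of other cells of the eye. Of 10 RPE markers, *Rpe65*, *Lrat*, *Rdh5*, *Rgr*, *Ttr*, *Tyrp1*, *Pmel*, *Mlana* and *Otx2* were far above BMDMs, while *Best1*, a chloride channel of the RPE, was at 0.752, 0.291 and 1.29 CPM in BMDMs and at only 0.810 to 1.60 CPM in RPE and was not tested. Of 9 macrophage markers, all were high in BMDMs. Summed over 15 rod genes, the RPE libraries ranged from 1499 to 14484 CPM, lowest in replicate 1 and highest in replicate 5, against 3.13 to 4.32 CPM in BMDMs. A list of 14 genes of the stratified epithelium of the ocular surface (keratins such as *Krt5*, *Krt15*, *Krt4* and *Krt13*, and the factor *Trp63*), added after *Krt15* had been seen among the largest differences, summed to 20709 CPM in RPE replicate 1, 13384 in 2, 13792 in 3, 11895 in 4, 6325 in 5 and 3910.5 in 6, and to at most 4.90 CPM in BMDMs. Not every gene of that list followed its sum: *Krt12* ran from 14.3 CPM in replicate 2 to 254 in replicate 5, and *Krt17* was highest in replicate 2. An added list of 11 lens genes, led by crystallins, summed to 859 to 6572 CPM in RPE. Fibroblast and mural genes summed to 894 to 1323 CPM, Mueller glia genes to 2797 to 3844, endothelial genes to 134 to 348 and globin and other erythroid genes to 289 to 2064. All 15 rod genes were lowest in replicate 1 and highest in replicate 5, while replicate 1 was the highest and replicate 5 or 6 the lowest library for 3737 of 15631 genes tested (23.9%). That order was found in 17 of 84 identity genes (20.2%), 29 of 110 phagocytic genes (26.4%) and 27 of 117 lysosomal genes (23.1%). The reverse order, lowest in replicate 1 and highest in 5 or 6, held for 15.6% of all genes tested. It held for 5 (5.95%), 8 (7.27%) and 6 (5.13%) of the identity, phagocytic and lysosomal genes. Either order is given below only for some members and lists, and the part of these cells in a member's level was not tested.

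**Figure D1:**
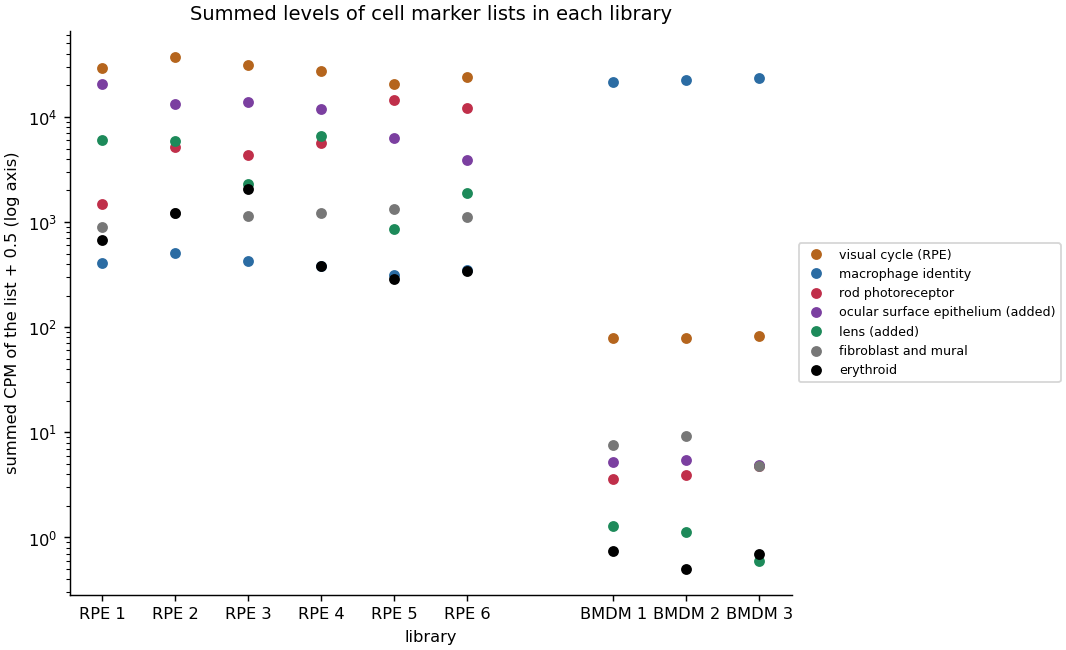
Summed CPM plus 0.5 (log axis) of 7 cell marker lists in each of the 6 RPE and 3 BMDM libraries, a point per list and library. Visual cycle genes sum to 20399.6 CPM or more in every RPE library, in RPE replicate 1 rod genes are lowest and ocular surface genes highest, and macrophage identity genes sum to 21674 CPM or more in BMDMs and at most 511 CPM in RPE.

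More genes were shared than particular to either group, and more of the called genes were higher in RPE than in BMDMs, except with upper-quartile scaling. At a mean of 1 CPM or more, 11111 genes were found in both groups, 4825 in RPE only and 975 in BMDMs only. Of 15631 genes tested, 5360 (34.3%) were higher in RPE, 2680 (17.1%) were higher in BMDMs and 4818 (30.8%) were of like level. The libraries of the groups did not overlap for 83.7% of the genes tested, with RPE above for 47.8% and BMDMs above for 35.9%, and without the fold threshold 86.9% would be called. RPE thus had 66.7% of the called genes, a share that moved to 44.6% with upper-quartile scaling, which moves the median log2 fold change of all genes to -0.589. The median log2 fold change of all genes tested was 0.22, and each list is to be read beside that value. A like level is therefore one near the bulk of genes under the main scaling, and under upper-quartile scaling 3355 genes were of like level and many of those named below as such turned below 0 or left it. These are bulk libraries, so fewer cells of a type and less RNA per cell cannot be told apart in any difference below. Of 84 identity genes tested, 52 were higher in RPE and 28 in BMDMs, counts that depend on how many markers of each cell were listed. Against the background of all genes, 16 of 110 phagocytic genes (14.5%) and 12 of 117 lysosomal genes (10.3%) were higher in RPE. In BMDMs, 51 (46.4%) and 56 (47.9%) of them were higher. These counts also depend on the genes listed: 16 of the 51 phagocytic genes were of the list of Fc, complement and pattern receptors. Counts in the lists below are to be read beside 34.3% (higher in RPE), 17.1% (higher in BMDMs) and 30.8% (like level).

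**Figure D2:**
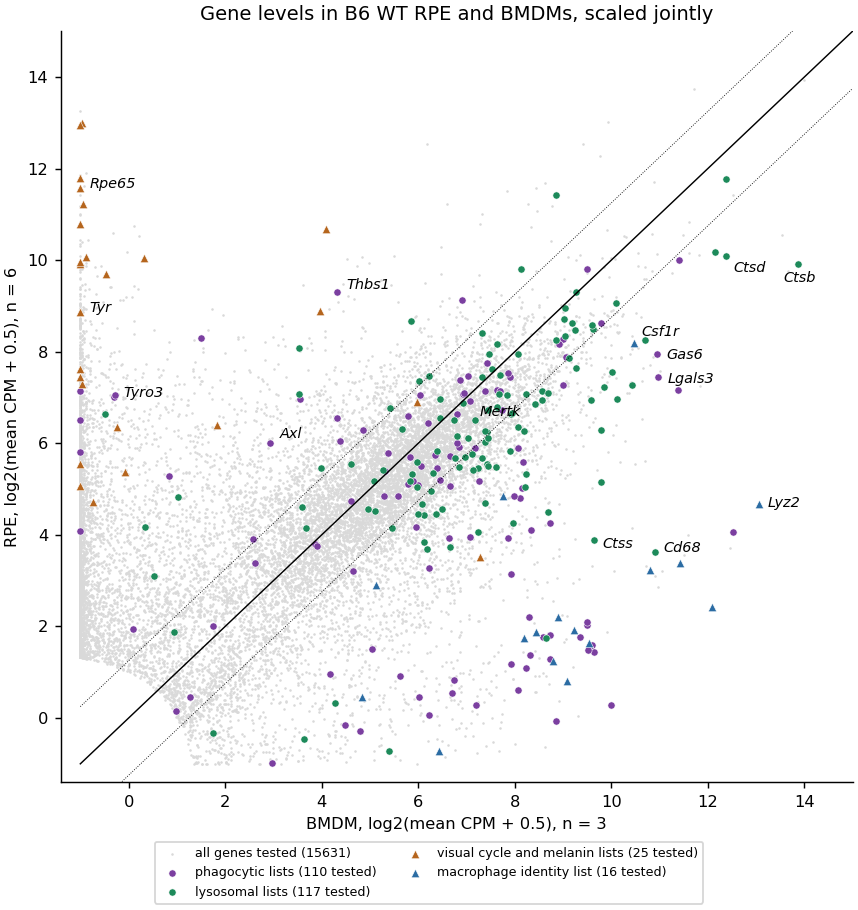
Mean level of every gene tested in BMDMs (x axis, 3 libraries) and RPE (y axis, 6 libraries), both as log2(mean CPM + 0.5), with the line of equal levels and dotted lines at the fold threshold. Most visual cycle and melanin genes stand at the left and macrophage identity genes at the lower right. The phagocytic and lysosomal genes spread to both sides of the line of equal levels, with more of them towards BMDMs.

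Of the 11 visual cycle genes tested, 10 were called higher in RPE. None of the 11 had overlapping groups, which was also so for 83.7% of all genes tested. *Rpe65*, the isomerase that remakes 11-cis retinol, stood at 2191 to 3981 CPM in RPE (median 3131) and had no read in the BMDM libraries, at least 20456-fold higher against the floor of 3 reads per library. *Rgr*, an opsin of the RPE, ranged over 5882 to 10987 CPM (median 8230.2) against 0.0418, 0 and 0 in BMDMs. *Ttr*, the thyroxine and retinol carrier transthyretin, ranged over 5687 to 10492 CPM (median 8069) with no read in BMDMs, at least 53397-fold higher. Every RPE library was high in these genes, and all 11 tested were highest in replicate 2 and lowest in replicate 5. *Rlbp1*, which binds 11-cis retinal, was at 1744 to 3233 CPM (median 2318) in RPE and at 0, 0 and 0.0496 in BMDMs. The exception was *Rdh11*, a retinol dehydrogenase of many tissues, which did not reach the fold threshold, and *Rbp4* was too low to be tested.

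All but 1 of the pigment genes were higher in RPE. *Tyr*, the copper enzyme tyrosinase that begins melanin synthesis, stood at 447 to 489 CPM (median 473), so that its highest library was 1.09 times its lowest, and had no read in BMDMs (at least 3160.4-fold higher). *Dct* and *Tyrp1*, which act after tyrosinase, stood at 2956 to 4098 CPM (median 3625) and 749 to 1141 CPM (median 1050.0), again with no read in BMDMs. *Pmel*, the amyloid scaffold of the melanosome, was at 695 to 1310.2 CPM (median 1117) against 0.669, 0.706 and 0.843 in BMDMs, a log2 fold change of 9.70 ± 0.19 (limma, adjusted p = 2.29e-11). Of the 14 melanin genes, 13 were higher in RPE. The other was *Rab32*, a small GTPase of lysosome-related organelles, at 156, 157 and 149 CPM in BMDMs and 8.66 to 13.5 in RPE (median 10.8), with a log2 fold change of -3.77 ± 0.12. The factor MITF turns on pigment genes through a motif known as the M-box, and *Mitf* itself was of like level: 52.7, 54.6 and 66.1 CPM in BMDMs, 87.5 to 102 in RPE (median 89.8), log2 fold change 0.67 ± 0.08, 95% interval 0.48 to 0.85. The libraries did not overlap, with RPE above BMDMs, but under upper-quartile scaling the log2 fold change of *Mitf* was -0.12 (95% interval -0.30 to 0.07).

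The start regions of 3 of these genes are shown because they hold that M-box (TCATGTG, in capitals) and because no read of these genes was found in BMDMs, where *Mitf* was of like level. The sequences are RefSeq promoters of GRCm38, 5′ to 3′ on the strand of the gene, and the coordinates are those of the stretch printed.
*Tyr* (chr7:87493513-87493564, - strand): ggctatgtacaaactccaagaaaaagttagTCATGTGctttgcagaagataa
*Tyrp1* (chr4:80834136-80834202, + strand): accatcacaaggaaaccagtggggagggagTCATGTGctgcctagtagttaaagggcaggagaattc
*Dct* (chr14:118052361-118052427, - strand): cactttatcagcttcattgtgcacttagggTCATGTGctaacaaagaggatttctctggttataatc
The motif began 22, 47 and 151 bases before the start of the gene. Read on both strands of the 250 bases before each start, TCATGTG stood in 4 of the 9 melanin genes with a promoter in the table (these 3 and *Slc24a5*) and in 0 of 9 visual cycle genes, against 3.72% of all 27025 genes with a promoter. It also stood in 9 of 98 lysosomal genes (9.18%), of which 7 were higher in BMDMs, 1 in RPE and 1 was not called. A match is a run of letters, and binding was not measured.

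Transport, junction and transcription factor genes of the RPE were nearly all higher in RPE. *Atp1b1*, the beta subunit of the sodium pump, stood at 625 to 708 CPM (median 645) in RPE and 0, 0 and 0.0992 in BMDMs. The lactate transporter *Slc16a8* stood at 476 to 1023 CPM in RPE (median 688) and 0, 0 and 0.0992 in BMDMs, and the bicarbonate transporter *Slc4a5* and the GABA transporter *Slc6a13* had log2 fold changes of 10.36 ± 0.17 and 9.63 ± 0.13. All 12 junction and keratin genes tested were higher in RPE, led by *Krt18* (364 to 602 CPM, median 511), *Cldn1* (339 to 426 CPM, median 397) and *Cdh3* (177 to 302 CPM, median 264). *Cdh1* and *Epcam*, adhesion molecules of many epithelia, spread much more, over 45.5 to 319.8 and 4.69 to 45.2 CPM. Both were highest in replicate 1 and lowest in replicate 6, as the ocular surface sum was. In all, 6 of the 12 (50%) were highest in replicate 1 and lowest in 5 or 6. Of the RPE transcription factors, 7 of 8 were higher in RPE, with no read in BMDMs for *Otx2* (437 to 631 CPM in RPE, median 519), *Sox9* (101 to 155 CPM, median 133) and *Six3* (107 to 139 CPM, median 121). *Pax6*, a factor of eye development, stood at 299 to 453 CPM in RPE (median 402) and 0.0418, 0 and 0 in BMDMs.

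Macrophage identity was the mirror image, with all 16 genes higher in BMDMs. *Lyz2*, the lysozyme of macrophages, stood at 8392, 8826 and 8388 CPM in BMDMs and 17.4 to 39.1 in RPE (median 23.7), a log2 fold change of -8.42 ± 0.21 (adjusted p = 1.22e-10). *Mrc1*, the mannose receptor, stood at 3751, 3970.4 and 5280.3 CPM against 3.59 to 6.65 (median 4.76), and *Trem2*, a lipid receptor, at 546, 537 and 535 against 1.17 to 1.37 (median 1.27). *Csf1r*, the receptor for CSF1, differed less than most: it stood at 1384, 1446 and 1434 CPM in BMDMs and at 231 to 382 CPM in RPE (median 282), so that the mean of BMDMs was 4.86 times that of RPE. In RPE it was highest in replicate 2 and lowest in replicate 5, as the visual cycle genes were. For *Adgre1*, which encodes F4/80, that ratio was 288 (1.77 to 3.46 CPM in RPE), for *Ptprc*, which encodes CD45, 101 (2.08 to 3.20 CPM) and for *Lyz2* 338. *Itgam*, the alpha chain of complement receptor 3, also had a lower ratio, 7.62, and in RPE it ran from 12.4 CPM in replicate 6 to 48.0 in replicate 1. Apart from *Csf1r*, *Itgam* and *Lyz2*, each gene of the list was below 12 CPM in every RPE library, where the whole list summed to 312 to 511 CPM, most of it *Csf1r*.

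The transcription factors of the blood lineage moved with the surface genes. *Spi1*, which encodes PU.1, stood at 389, 381 and 385 CPM in BMDMs and 0.904 to 2.04 in RPE (median 1.48), log2 fold change -7.65 ± 0.21. *Irf8*, *Ikzf1* and *Irf5* had log2 fold changes of -6.13 ± 0.17, -5.48 ± 0.14 and -4.75 ± 0.44. *Irf5* ran from 2.60 CPM in RPE replicate 6 to 14.7 in replicate 1, and 6 of the 12 genes were highest in replicate 1 and lowest in 5 or 6. The exception among 12 genes was *Nr1h3*, which encodes the sterol receptor LXR alpha, at 2.68, 2.45 and 2.58 CPM in BMDMs and 4.07 to 5.21 in RPE (median 4.31), of like level with a 95% interval of 0.43 to 0.98. The PU.1 motif GAGGAAGT, read in the same way, was in 0 of 11 macrophage identity genes with a promoter and in 2.79% of all genes with one.

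Of the 10 largest differences towards RPE, *Rgr*, *Ttr*, *Rpe65* and *Dct* were of the visual cycle and melanin lists above. The others outside those lists were led by *Ptgds*, the prostaglandin D synthase of the eye and brain, at 7226 to 12093 CPM (median 9695), the lipid enzyme *Enpp2* at 3305 to 4579 (median 3584), the chaperone *Clu* at 3122 to 4606 (median 3881) and *Timp3*, a protease inhibitor of Bruch's membrane, at 2312 to 3438 (median 2589), with at most 3 reads in any BMDM library. The integrin chain *Itgb8* and *Krt15* were among them too, *Krt15* at 974 to 5570.4 CPM, with its highest level in replicate 1 and its lowest in replicate 6. Towards BMDMs they were, beside *Mrc1* and *Lyz2* of the identity list, *C5ar1*, the receptor for complement C5a, the chemokine *Ccl2*, the hexokinase *Hk3*, the matrix protein *Spp1*, the lectins *Siglec1* and *Clec4d*, and the scavenger receptors *Msr1* and *Stab1*. *Spp1*, for example, stood at 5704, 5798 and 5305 CPM in BMDMs and 8.46 to 15.1 in RPE (median 13.2), log2 fold change -8.76 ± 0.16.

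Of the TAM receptors, *Mertk* was shared and *Tyro3* and *Axl* were higher in RPE. *Mertk* (chr2:128698956-128802894) stood at 123, 135 and 146 CPM in the BMDM libraries and at 99.0 to 148 CPM in the RPE libraries (median 122). The groups overlapped, the log2 fold change was -0.17 ± 0.12 (adjusted p = 0.221) and its 95% interval of -0.45 to 0.11 made it a gene of like level. Upper-quartile scaling gave *Mertk* -0.95 (-1.23 to -0.68), which is not a like level. *Tyro3* (chr2:119797733-119818104) stood at 0.251, 0.332 and 0.347 CPM in BMDMs and 104 to 157 in RPE (median 125), log2 fold change 7.30 ± 0.13 (adjusted p = 1.19e-11). *Axl* (chr7:25757273-25788705) stood at 7.15, 8.35 and 6.00 CPM in BMDMs and 56.6 to 69.7 in RPE (median 64.3), log2 fold change 3.07 ± 0.11 (adjusted p = 1.51e-09). Neither gene had overlapping groups, as was so for 83.7% of all genes tested. Per exon length, RPE held *Mertk* at 27.8 ± 4.13 RPKM (SD, n = 6), *Tyro3* at 20.6 ± 3.26 and *Axl* at 12.6 ± 1.05, so that *Mertk* had the highest mean and the libraries of *Tyro3* overlapped its range, whereas BMDMs held *Mertk* at 31.1 ± 2.71 RPKM (SD, n = 3), *Axl* at 1.42 ± 0.233 and *Tyro3* at 0.05 ± 0.00837.

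The bridging molecules for these receptors ran the other way. *Gas6* (chr8:13465374-13494490), which binds all TAM receptors, stood at 1918, 1885 and 2106 CPM in BMDMs and 208 to 267 in RPE (median 250.4), log2 fold change -3.0 ± 0.09 (adjusted p = 4.84e-10). *Pros1* (chr16:62854307-62929346), which encodes protein S, stood at 55.4, 64.8 and 63.6 CPM and 14.1 to 22.5 (median 17.0), log2 fold change -1.79 ± 0.14. *Lgals3*, which encodes galectin-3, a lectin also described as a MERTK ligand, stood at 1979.8, 2021 and 2029 CPM in BMDMs and 69.1 to 308 in RPE (median 190.0), log2 fold change -3.71 ± 0.43, and in RPE was highest in replicate 1 and lowest in replicate 6. All 3 were higher in BMDMs without overlap of the libraries, and 35.9% of all genes tested had BMDMs above without overlap. *Tub* and *Tulp1*, tubby proteins described as MERTK ligands and also expressed in photoreceptors, had no read in BMDMs and spread over 13.7 to 117 and 26.4 to 284 CPM in RPE. Both were lowest in replicate 1 and highest in replicate 5, as the rod genes were, and the part of rods in their level was not tested.

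Receptors for outer segments and apoptotic cells were divided. The integrin alpha v beta 5 binds outer segments on the RPE. Its alpha chain *Itgav* stood at 117, 133 and 109.5 CPM in BMDMs and 471 to 619.7 in RPE (median 583), log2 fold change 2.23 ± 0.11 (adjusted p = 1.59e-08), while its beta chain *Itgb5* stood at 244, 257 and 217 and 138 to 194 (median 183), of like level at -0.47 ± 0.11 but called higher in BMDMs under upper-quartile scaling. *Itgb8*, another partner of the alpha v chain, had no read in BMDMs and 2050.2 to 2649.8 CPM in RPE (median 2362), at least 15648-fold higher. RPE therefore held *Itgb8* at 211 ± 19.9 RPKM against 49.0 ± 6.12 for *Itgb5*, and BMDMs held only the latter, at 67.5 ± 5.79. *Thbs1*, thrombospondin, a bridge to that integrin and to CD36, stood at 17.8, 19.4 and 21.3 CPM in BMDMs and 577 to 701 in RPE (median 617), log2 fold change 4.97 ± 0.08. *Cd36* itself, the scavenger receptor, stood at 624, 730.5 and 818 CPM in BMDMs and only 2.55 to 5.05 in RPE (median 3.19), log2 fold change -7.51 ± 0.21. *Stab1*, a phosphatidylserine receptor of macrophages, stood at 5464, 5899 and 6399 CPM and 15.4 to 17.5 (median 16), log2 fold change -8.46 ± 0.06, the largest of this list. The phosphatidylserine receptors *Cd300a* and *Cd300lf* were also higher in BMDMs (-5.58 ± 0.15 and -3.55 ± 0.17). *Adgrb1*, which encodes BAI1, had no read in BMDMs and 5.49 to 34.4 CPM in RPE, again lowest in replicate 1 and highest in replicate 5, and *Ager* was higher in RPE (1.85 ± 0.19) at 2.71 to 4.8 CPM. The bridging protein *Mfge8* stood at 71.1, 67.7 and 56.8 CPM in BMDMs and 112 to 168 in RPE (median 126), log2 fold change 1.01 ± 0.14, which did not reach the fold threshold. The lipoprotein receptor *Scarb1* (-0.45 ± 0.10) and the "don't eat me" signal *Cd47* (-0.55 ± 0.09, or -1.34 and called higher in BMDMs with upper-quartile scaling) were of like level, and *Stab2* was so too, at 2.51, 2.24 and 3.82 CPM in BMDMs and 2.16 to 4.62 in RPE. Over the list, 4 of 16 genes tested were higher in RPE, 6 in BMDMs and 4 were of like level, with a median log2 fold change of -0.46.

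Receptors for antibody, complement and microbes were nearly all higher in BMDMs. Of 17 genes tested, 16 were higher in BMDMs and 0 in RPE, with a median log2 fold change of -5.10. The median was -5.15 with genes of at most 3 reads in every library of a tissue set at their bound. *C5ar1* stood at 999, 977 and 1069 CPM in BMDMs and at a median of 0.640 in RPE, where the lowest library had 0.443 and the highest 1.3, log2 fold change -9.73 ± 0.18. *Itgb2*, the beta chain of the complement receptors, stood at 780.2, 807 and 802 and 1.39 to 2.66 (median 2.24), and *C3ar1*, the receptor for complement C3a, at 698, 704 and 796 and 1.91 to 2.85 (median 2.15). The scavenger receptor *Msr1* stood at 460.1, 507 and 425 CPM and 0.0984 to 0.701 (median 0.526). In RPE the genes tested were below 4 CPM in every library, apart from *Sirpa* and the microbe sensors *Tlr2* and *Tlr4*. *Sirpa*, the receptor for CD47, kept 123 to 157 CPM in RPE (median 140.5) against 2638, 2693 and 2724 in BMDMs, log2 fold change -4.24 ± 0.08, and had the highest level of the list in RPE per exon length, 29.0 ± 2.46 RPKM. *Fcer1g*, the signalling chain of the Fc receptors, stood at 807, 799.8 and 733 CPM in BMDMs and 2.02 to 2.92 in RPE (median 2.49).

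**Figure D3:**
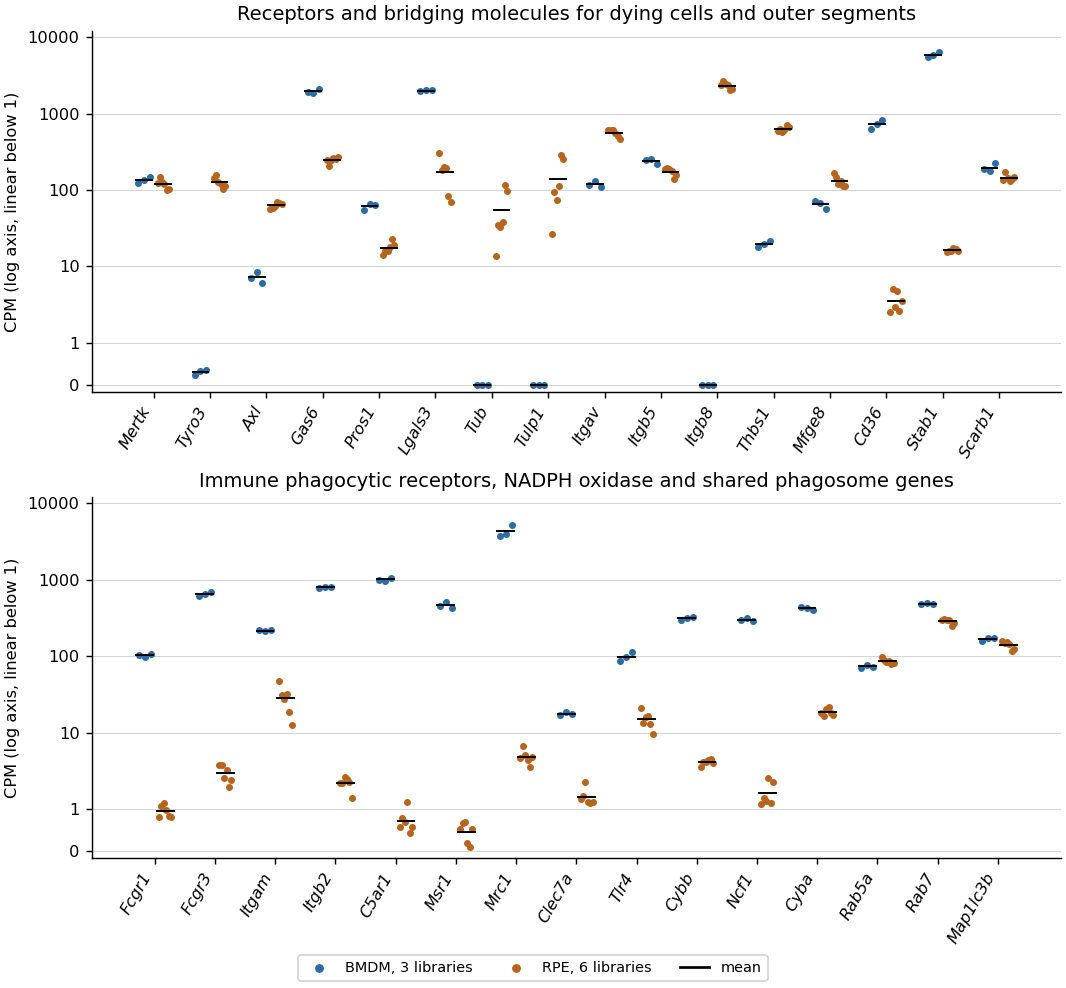
CPM of 31 genes in each library (log axis, linear below 1), BMDMs in blue and RPE in brown, with black bars for the means. *Mertk*, *Itgb5*, *Scarb1*, *Rab5a* and *Map1lc3b* differ little between the tissues, *Tyro3*, *Itgb8* and *Thbs1* stand above in RPE, and the Fc, complement and NADPH oxidase genes stand above in BMDMs.

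Behind the receptors, several gene families of engulfment had a member higher in RPE and a member higher in BMDMs. The pairs shown were picked after their values had been seen, as were all genes below that the rule for naming did not choose. Of the SRC family kinases, *Src* stood at 0.502, 0.208 and 0.248 CPM in BMDMs and 105 to 157 in RPE (median 137), log2 fold change 7.35 ± 0.17. Per exon length the level of *Src* in RPE was 30.5 ± 5.20 RPKM and that in BMDMs 0.0730 ± 0.0365. The actin regulator *Nckap1*, of the WAVE complex, stood at 2.38, 2.53 and 2.03 CPM in BMDMs and 257 to 373 in RPE (median 322), and its blood-lineage relative *Nckap1l* at 696, 731 and 737 and 3.00 to 4.61 (median 3.78). The log2 fold changes of that pair were 6.80 ± 0.11 and -7.41 ± 0.12. *Wasl*, which encodes N-WASP, was higher in RPE (2.22 ± 0.10) and *Was*, which encodes WASP, in BMDMs (-6.92 ± 0.16). *Rac2*, the RAC GTPase of blood cells, was at 419, 429.8 and 423 CPM in BMDMs and 1.53 to 2.53 in RPE, log2 fold change -7.45 ± 0.13, while *Rac1*, which most cells use, stood at 507, 526 and 512 and 231 to 408 (median 330.0) and was not called (-0.75 ± 0.17).

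Of the exchange factors that switch RAC on, some were of like level and others divided. *Elmo2* stood at 125, 123 and 118 CPM in BMDMs and 127 to 139 in RPE (median 134), of like level at 0.13 ± 0.05, and *Dock1*, which acts with ELMO proteins, stood at 123, 121 and 124 and 95.8 to 179 (median 139), of like level at 0.13 ± 0.16. Around them *Elmo3* was higher in RPE (4.44 ± 0.16), and *Dock2* (-6.93 ± 0.14), *Elmo1* (-4.08 ± 0.36) and *Vav1* (-7.46 ± 0.14) in BMDMs. *Vav2* was of like level (0.37 ± 0.20). *Gulp1*, an adaptor that engulfment receptors use, had no read in BMDMs and 80.4 to 94.9 CPM in RPE (median 91.5), at least 605-fold higher. *Myo7a*, the motor that carries phagosomes and melanosomes in the RPE, was of like level, at 220.1, 232 and 241 CPM in BMDMs and 165 to 209 in RPE (median 184), log2 fold change -0.31 ± 0.09. Over the 29 genes, 6 were higher in RPE, 13 in BMDMs, and 5 were of like level (median log2 fold change -0.93). Of these 29, 14 (48.3%) were highest in RPE replicate 1 and lowest in 5 or 6, against 23.9% of all genes tested. The ocular surface sum was also highest in replicate 1 and lowest in replicate 6. Among those 14 genes were the kinases *Lyn* (12.0 to 49.7 CPM) and *Syk* (7.18 to 27.5 CPM), both higher in BMDMs at -3.47 ± 0.40 and -4.34 ± 0.35.

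**Figure D4:**
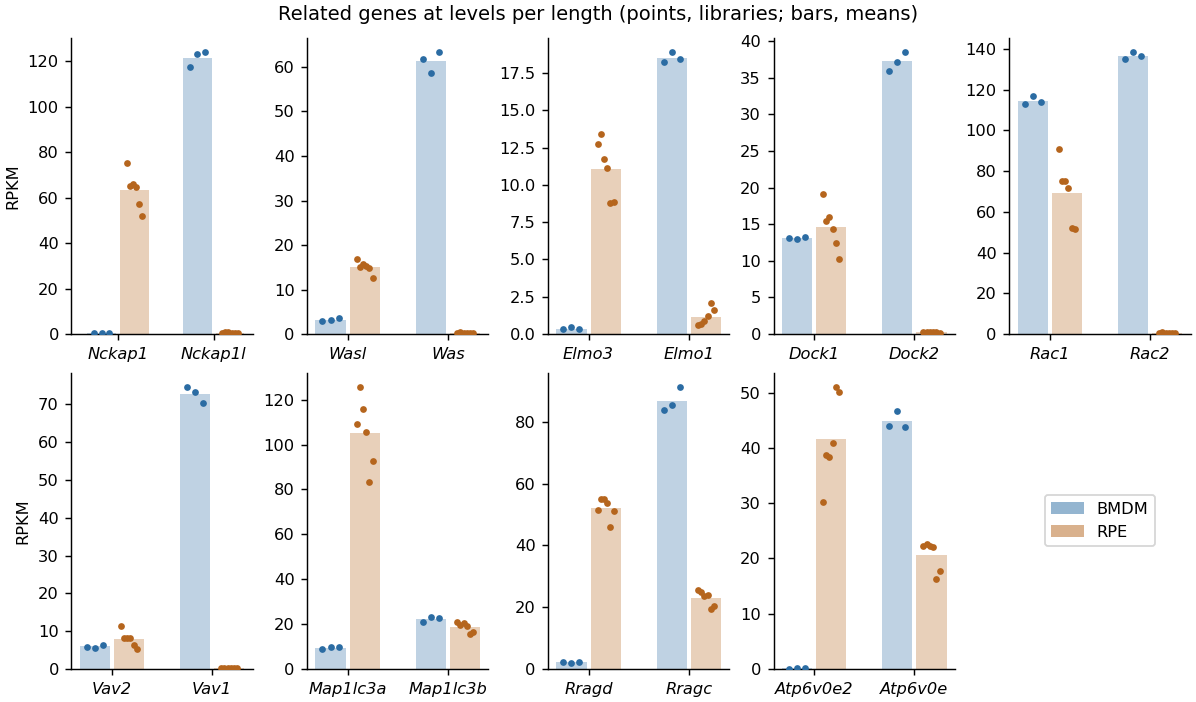
Levels per exon length (RPKM) of 9 pairs of related genes, BMDMs in blue and RPE in brown, points for the libraries and bars from 0 for the means. *Nckap1*, *Wasl*, *Elmo3*, *Map1lc3a*, *Rragd* and *Atp6v0e2* are higher in RPE, *Nckap1l*, *Was*, *Elmo1*, *Dock2*, *Rac2*, *Vav1* and *Rragc* are higher in BMDMs, and *Dock1*, *Vav2* and *Map1lc3b* are of like level.

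Phagosome maturation genes were mostly not called. Of 22 genes, 11 were of like level, 6 were higher in BMDMs and 1 in RPE. *Rab5a*, the GTPase of early phagosomes, stood at 71.1, 76.9 and 72.4 CPM in BMDMs and 79.6 to 98.8 in RPE (median 85.2), and *Rab7*, that of late ones, at 485, 494 and 478 and 251 to 306 (median 295), both of like level at 0.23 ± 0.07 and -0.76 ± 0.07, though upper-quartile scaling put *Rab7* at -1.55 and higher in BMDMs. The exchange factor subunit *Mon1b* (0.08 ± 0.07), the fusion protein *Vamp7* (0.11 ± 0.09) and *Rab20* (-0.11 ± 0.23) were the closest between the tissues. In BMDMs, *Rab7b* stood at 292, 281 and 276 CPM against 13.7 to 53.7 in RPE, log2 fold change -3.25 ± 0.36, and was highest in RPE replicate 1 and lowest in 6. The tethering proteins *Plekhm1* (-2.58 ± 0.08), *Eea1* (-2.17 ± 0.07) and *Vps18* (-2.08 ± 0.07) were higher in BMDMs, and *Rab34* (1.67 ± 0.09) alone was higher in RPE.

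The NADPH oxidase, which makes superoxide in the phagosome, was higher in BMDMs, while several autophagy genes were of like level. *Ncf1* stood at 298, 313 and 293 CPM in BMDMs and 1.17 to 2.57 in RPE (median 1.31), log2 fold change -7.19 ± 0.21. *Ncf4*, the catalytic subunit *Cybb* and its partner *Cyba* had log2 fold changes of -6.18 ± 0.19, -6.09 ± 0.08 and -4.47 ± 0.09, with 3.58 to 4.53 CPM of *Cybb* left in RPE. LC3-associated phagocytosis places lipidated LC3 on the phagosome, and its genes *Becn1* (-0.12 ± 0.08), *Atg16l1* (-0.45 ± 0.13) and *Map1lc3b* (-0.26 ± 0.10) were of like level. *Map1lc3a*, another LC3 gene, stood at 10.3, 11.8 and 11.6 CPM in BMDMs and 98.2 to 149 in RPE (median 127), log2 fold change 3.40 ± 0.12 (adjusted p = 2.03e-09). Per exon length, *Map1lc3a* was the higher of the pair in RPE, at 105 ± 15.5 RPKM against 18.7 ± 2.20 for *Map1lc3b*, and the lower in BMDMs, at 9.51 ± 0.666 against 22.3 ± 1.01.

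Lysosomal genes were found in both groups of libraries, and more of them were higher in BMDMs than in RPE. Of 117 lysosomal genes tested, 56 were higher in BMDMs, 12 in RPE and 31 of like level (26.5%), and their median log2 fold change was -1.15, beside 0.22 for all genes. The list of proteases, which also holds the cathepsin inhibitor *Cst3* given below, summed to 27128 to 28356 CPM in BMDMs and 5406 to 8029 in RPE. *Ctsb*, cathepsin B, stood at 14512, 14684 and 15805 CPM in BMDMs and 838 to 1035 in RPE (median 1005), log2 fold change -3.95 ± 0.13 (adjusted p = 7.81e-10). *Ctss*, the cathepsin of antigen presentation, stood at 816, 844 and 723 CPM and 12.5 to 18.1 (median 13.6), log2 fold change -5.76 ± 0.11. *Ctsd*, cathepsin D, which degrades rhodopsin in the RPE, stood at 5321, 5551 and 5138 CPM in BMDMs and 819.5 to 1314 in RPE (median 1149.9), log2 fold change -2.31 ± 0.16. Per exon length it had the highest level of these proteases in RPE, 463 ± 77.1 RPKM against 161 ± 13.2 for *Ctsb*, while BMDMs held 2270.0 ± 87.9 RPKM of *Ctsd* and 2479 ± 116 of *Ctsb*. *Ctsz* (-3.49 ± 0.10), the asparaginyl protease *Lgmn* (-3.14 ± 0.07) and *Napsa* (-3.97 ± 0.15) were higher in BMDMs as well.

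A few members ran against the list. *Ctsf* stood at 10.7, 12.2 and 10.4 CPM in BMDMs and 115 to 152 in RPE (median 131), log2 fold change 3.53 ± 0.10 (adjusted p = 2.34e-10). *Ctsk*, the collagen-cleaving cathepsin K, stood at 0.711, 0.872 and 0.694 and 15.8 to 19.9 (median 17.2), log2 fold change 3.84 ± 0.11. Both were higher in every RPE library than in every BMDM library, as were 47.8% of all genes tested. *Ctsh* was called too, at 47.0, 42.7 and 36.3 CPM in BMDMs and 66.1 to 169.8 in RPE, log2 fold change 1.29 ± 0.27. But *Ctsh* followed the order of the ocular surface sum, and it fell below the fold threshold without RPE replicate 1 (1.17) and without BMDM replicate 3 (1.19). *Cst3*, cystatin C, stood at 1922 to 3691 CPM in RPE (median 2778) and 455, 469 and 464 in BMDMs, log2 fold change 2.55 ± 0.19. It is a secreted inhibitor of cathepsins and not a protease, but it is counted in the list and in its sum. *Tpp1* (-0.60 ± 0.06, or -1.39 and higher in BMDMs with upper-quartile scaling) and *Ctso* (0.13 ± 0.09) were of like level, and *Ctsl* (-1.04 ± 0.08) was not called.

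Among the enzymes for sugars, 13 of 24 were higher in BMDMs and 0 in RPE. *Gusb*, beta-glucuronidase, differed most, at 858, 909.8 and 867 CPM in BMDMs and 33.7 to 38.6 in RPE (median 34.9), log2 fold change -4.62 ± 0.06. *Galns* (-2.92 ± 0.08), *Gla* (-2.70 ± 0.09), *Man2b1* (-2.62 ± 0.05) and *Hexa* (-2.62 ± 0.07) were also higher in BMDMs. *Aga* (0.09 ± 0.07) and the activator protein *Gm2a* (-0.20 ± 0.10) were of like level.

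Enzymes for lipids were divided. *Smpd1*, acid sphingomyelinase, stood at 55.5, 58.9 and 57.2 CPM in BMDMs and 363 to 449.8 in RPE (median 396), log2 fold change 2.81 ± 0.08 (adjusted p = 2.08e-10). Other enzymes of the list ran the other way. *Lipa*, the acid lipase of cholesteryl esters, stood at 1051, 1093 and 1204 CPM and 113 to 137 (median 125), log2 fold change -3.15 ± 0.08. *Pla2g15*, a lysosomal phospholipase, had a log2 fold change of -3.18 ± 0.06, and *Pld4*, an endolysosomal nuclease, of -6.91 ± 0.11. *Naaa* (1.49 ± 0.07) and *Acp5* (2.43 ± 0.40) were higher in RPE, the latter at only 3.54 to 13.5 CPM and highest in replicate 1, while *Ppt1* (-0.61 ± 0.05) and *Ppt2* (-0.60 ± 0.09), which remove fatty acids from proteins, were of like level but higher in BMDMs with upper-quartile scaling (-1.39 and -1.37). *Psap*, the precursor of the saposins, stood at 5268, 5172 and 5555 CPM in BMDMs and 2921 to 4148 in RPE (median 3509.9) and was not called (-0.62 ± 0.17).

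The lysosomal membrane had a shared and a divided part. *Lamp2* stood at 492, 522 and 573 CPM in BMDMs and 453 to 558 in RPE (median 495), of like level at -0.08 ± 0.09 but not under upper-quartile scaling (-0.87, -1.07 to -0.67), while its relative *Lamp1* stood at 1617, 1646 and 1709.6 and 265 to 339 (median 306), log2 fold change -2.45 ± 0.10. *Cd68*, the macrophage member of that family, stood at 1882, 1912 and 1923 CPM and 8.22 to 16.2 (median 12.4), log2 fold change -7.31 ± 0.19. The cholesterol exporter *Npc1* (-3.18 ± 0.10), the metal transporter *Slc11a1* (-3.74 ± 0.20) and *Gpnmb* (-1.99 ± 0.16), a protein of melanosomes and of macrophage lysosomes, were higher in BMDMs. Of the lysosomal calcium channels, *Mcoln1* (-0.40 ± 0.09) and *Tpcn1* (0.08 ± 0.10) were of like level, and *Mcoln2* stood at 39.5, 41.5 and 43.4 CPM in BMDMs and 0.0354 to 0.221 in RPE, log2 fold change -6.11 ± 0.14. *Laptm4a* (1.65 ± 0.13) and the lipid transporter *Abca2* (1.35 ± 0.07) were higher in RPE, and *Scarb2* (0.11 ± 0.11) was of like level.

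Most subunits of the proton pump were not called. Of 20 V-ATPase genes tested, 9 were of like level, 5 were higher in BMDMs and 2 in RPE. *Atp6v1d* (-0.06 ± 0.10), the accessory subunit *Atp6ap2* (-0.13 ± 0.10) and *Atp6v1e1* (0.47 ± 0.13) were the closest. *Tcirg1*, the a3 subunit known from osteoclasts and macrophages, stood at 383, 416 and 445 CPM in BMDMs and 20.8 to 25.7 in RPE (median 21.5), log2 fold change -4.19 ± 0.08, and *Atp6v0d2*, the d2 subunit, at 9.99, 10.7 and 14.8 and 0 to 0.532, log2 fold change -4.11 ± 0.24. On the side of RPE, *Atp6v0e2* stood at 0.167, 0.208 and 0.248 CPM in BMDMs and 71.8 to 122 in RPE (median 94.8), log2 fold change 7.11 ± 0.16, and *Atp6v1g2* at 1.34, 1.70 and 1.59 and 18.1 to 38.5 (median 25.3), log2 fold change 3.75 ± 0.21. Both of these forms are known from neurons and were lowest in RPE replicate 1 and highest in replicate 5, as the rod genes were. Their highest library was 1.69 and 2.13 times the lowest, and that of the rod sum 9.66 times. The part of rods in the level of these 2 genes was not tested. The common form *Atp6v0e* stood at 163, 174 and 162 CPM in BMDMs and 60.2 to 84.2 in RPE (median 82.5) and was not called (-1.13 ± 0.12).

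Regulators of lysosome number were mostly higher in BMDMs, 9 of 17. *Tfeb*, the master factor of lysosomal genes, was of like level, at 28.6, 31.2 and 31.8 CPM in BMDMs and 20.7 to 25.5 in RPE (median 23.4), log2 fold change -0.40 ± 0.08, though not under upper-quartile scaling (-1.17, -1.36 to -0.99). Its relatives *Tfe3* and *Tfec* were higher in BMDMs: *Tfe3* stood at 169, 173 and 171 CPM and 44.1 to 47.1 (median 46.5), log2 fold change -1.88 ± 0.05, and *Tfec* at 29.5, 30.9 and 33.7 and 0.310 to 1.72, log2 fold change -4.50 ± 0.29. Per exon length, the highest of the family in BMDMs was *Tfe3*, at 18.4 ± 0.232 RPKM against 9.33 ± 1.17 for *Mitf*, 5.61 ± 0.388 for *Tfec* and 5.39 ± 0.305 for *Tfeb*, and the highest in RPE was *Mitf*, at 14.8 ± 0.851 RPKM against 4.97 ± 0.123 for *Tfe3*, 4.08 ± 0.296 for *Tfeb* and 0.175 ± 0.0930 for *Tfec*. The RAG GTPases that hold these factors at the lysosome also divided. *Rragd* stood at 11.3, 10.3 and 11.5 CPM in BMDMs and 238 to 285 in RPE (median 272), log2 fold change 4.54 ± 0.07 (adjusted p = 4.21e-12), and *Rragc* at 281, 285 and 305 and 64.7 to 85.9 (median 79.1), log2 fold change -1.92 ± 0.10. *Flcn*, folliculin, which acts on both, was of like level (0.10 ± 0.10), whereas its partner *Fnip2* was higher in BMDMs (-2.93 ± 0.11) and *Fnip1* of like level (-0.56 ± 0.12, or -1.34 and higher in BMDMs with upper-quartile scaling). *Gnptab*, which makes the mannose 6-phosphate tag of lysosomal enzymes, had a log2 fold change of -1.96 ± 0.07.

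TFEB, TFE3 and MITF read the E-box CACGTG, and 4 lysosomal promoters that hold it are shown because their genes ended on different sides of the comparison. They are RefSeq promoters of GRCm38, 5′ to 3′ on the strand of the gene, with every CACGTG in capitals.
*Lamp1*, higher in BMDMs (chr8:13159116-13159160, + strand): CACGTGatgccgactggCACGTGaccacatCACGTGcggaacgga
*Ctsd*, higher in BMDMs (chr7:142387890-142387955, - strand): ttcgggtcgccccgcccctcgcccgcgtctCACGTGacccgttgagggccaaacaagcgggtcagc
*Mcoln1*, of like level (chr8:3500444-3500509, + strand): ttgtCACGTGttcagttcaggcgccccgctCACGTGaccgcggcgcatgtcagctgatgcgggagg
*Ctsf*, higher in RPE (chr19:4855056-4855121, + strand): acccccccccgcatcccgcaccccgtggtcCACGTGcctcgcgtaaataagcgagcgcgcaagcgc
In the 250 bases before the start, read on both strands, CACGTG stood in 25 of the 98 lysosomal genes with a promoter in the table (25.5%) and in 6.86% of all genes with one. Of those 25 genes, 17 were higher in BMDMs, 1 in RPE and 7 were not called. The letters of CACGTG and of the M-box TCATGTG cannot overlap in a sequence, so a match to either is not a match to the other.

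**Figure D5:**
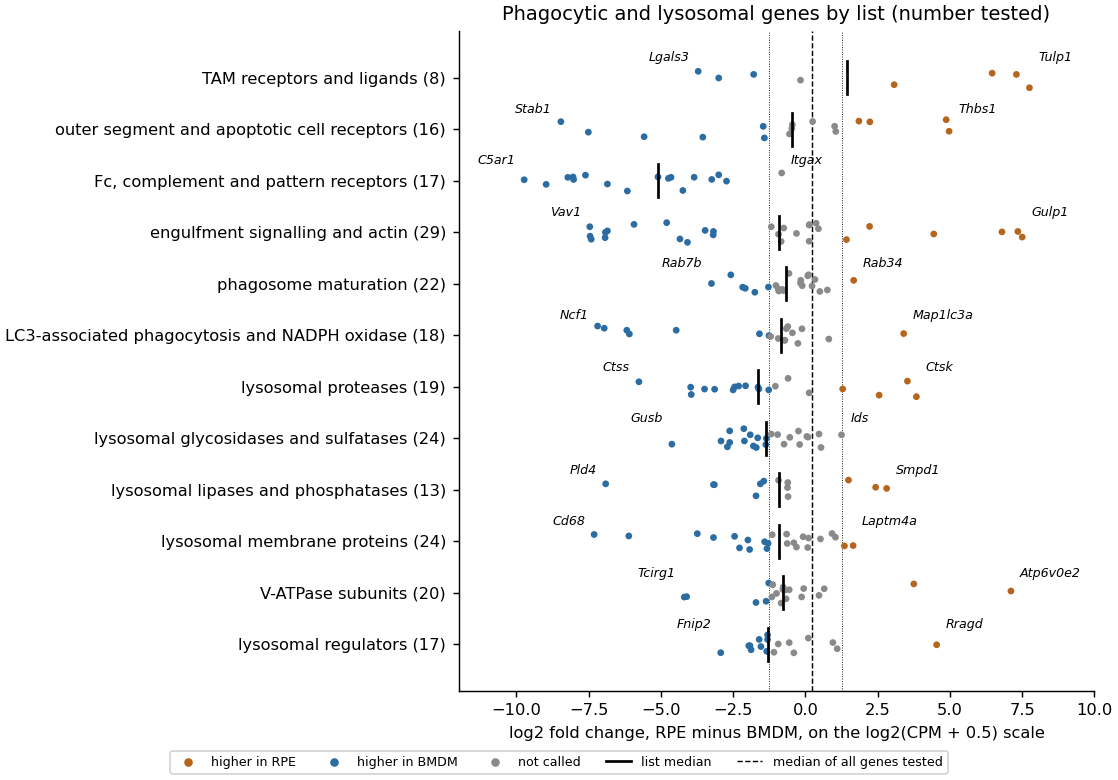
Log2 fold change, RPE minus BMDM, of each tested gene in the 12 phagocytic and lysosomal lists, brown where higher in RPE, blue where higher in BMDMs and grey where not called, with black bars for list medians. List medians run from -5.10 for Fc, complement and pattern receptors to 1.45 for TAM receptors and ligands, and all 6 lysosomal medians lie below the dashed median of all genes, 0.22.

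Genes for the use of fatty acids fell on both sides, as genes in general did. RPE cells are known to burn the fatty acids of outer segments. *Ppargc1a*, a coactivator of oxidative genes, stood at 55.7 to 71.5 CPM in RPE (median 64.9) and 0, 0.0831 and 0 in BMDMs, and *Ppara*, the receptor that senses fatty acids, at 10.6 to 13.1 (median 12.2) and 0.0418, 0 and 0. *Cpt1a*, which admits fatty acids to mitochondria, stood at 81.6, 92.1 and 96.7 CPM in BMDMs and 292 to 351 in RPE (median 323), log2 fold change 1.82 ± 0.08. In this list of 22, 4 genes (18.2%) were of like level, beside 30.8% of all genes tested. The closest were *Acadl* (0.18 ± 0.12), *Hadha* (0.20 ± 0.08) and *Acadm* (0.43 ± 0.16), enzymes of beta-oxidation. *Abca4*, the retinoid flippase of photoreceptor discs that the RPE also makes, stood at 617 to 813 CPM in RPE (median 689), lowest in replicate 1 and highest in replicate 5, and the fatty acid elongase *Elovl2* at 39.0 to 55.0 (median 43.4).

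Over the list, 9 of 22 genes (40.9%) were higher in RPE and 6 (27.3%) in BMDMs, beside 34.3% and 17.1% of all genes tested. Those with the largest difference towards BMDMs are given here. *Lpl*, lipoprotein lipase, stood at 1232, 1141 and 1389 CPM in BMDMs and 42.4 to 79.5 in RPE (median 68.7), log2 fold change -4.28 ± 0.18. *Plin2*, the coat protein of lipid droplets, stood at 593, 589 and 648 and 56.0 to 87.7 (median 75.7), log2 fold change -3.08 ± 0.13. The receptor *Pparg* (-2.97 ± 0.16) and the sterol exporter *Abcg1* (-1.82 ± 0.20) were higher in BMDMs too. *Apoe* was abundant in both, at 1932, 1948 and 1786 CPM in BMDMs and 2849 to 3581 in RPE (median 3446), and was not called (0.82 ± 0.13).

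Cell cycle genes were higher in BMDMs. All 14 cell cycle genes were higher in BMDMs, among them *Bub1* (-4.14 ± 0.60), *Rrm2* (-4.11 ± 0.44), *Mcm5* (-4.08 ± 0.44) and *Ccnb2* (-4.06 ± 0.59), and the list summed to 2978 to 3177 CPM in BMDMs. In RPE it summed to 109.8 to 475 CPM, and 11 of the 14 genes were highest in replicate 1 and lowest in 5 or 6, such as *Mki67* from 14.1 CPM in replicate 6 to 128 in replicate 1. Precursors of granulocytes left little in BMDMs, where *Mpo* stood at 7.11, 5.69 and 5.21 CPM and *Csf3r* at 22.4, 23.1 and 23.7, and no lymphocyte gene reached the level tested. Of 3 dendritic cell genes tested, 1 was higher in RPE and 0 in BMDMs, and of 9 cone genes 8 were higher in RPE.

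The same comparison was made in the knockout lines, whose libraries were not used above. In *Mertk*-/-V1 mice (6 RPE and 3 BMDM libraries), 7470 of the 7956 genes called in B6 WT and tested in both were called in the same direction (93.9%) and 1 in the opposite one, which was 92% of the genes called in that line. In *Mertk*-/-V2 mice (3 and 3 libraries) it was 7512 of 7914 (94.9%, and 90.3% of those of the line) with 0 in the opposite direction, and in *Mertk*-/-V3 mice 7608 of 7912 (96.2% and 88%) with 1. The share of genes called higher in RPE or in BMDMs was 35.2% and 15.8% in *Mertk*-/-V1, 34.7% and 18.3% in *Mertk*-/-V2, and 35.1% and 19.1% in *Mertk*-/-V3. Culture, age and the way the RPE was collected differ between the tissues in those lines just as in B6 WT.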

How the data were processed

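Polyadenylated RNA of P25 RPE and of BMDMs was sequenced by the study as paired reads on a NovaSeq. Per the study's methods, the authors trimmed with btrim, aligned to GRCm38 in STAR and normalised gene counts in DESeq2; the counter, annotation and tool versions are not given in the sources used here. The deposited values of each table are a signal, counts divided by a size factor, and each tissue was normalised on its own by the authors. The tables also hold 21 knockout libraries.

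Each column was divided by its smallest value above 0. This gave whole reads for 100% of the values within 0.01 of a read, and the reads of both tables were then scaled together by the trimmed mean of M values (TMM, edgeR 4.0.16). Genes with a mean of the group means of at least 1 CPM were fitted with limma 3.58.1 (R 4.3.3) with a mean-variance trend on log2(CPM + 0.5), with Benjamini-Hochberg adjustment. These choices replaced the study's DESeq2 because the tissues come from separately normalised tables. On the recovered reads, edgeR's quasi-likelihood test called 5532 genes higher in RPE and 2813 in BMDMs, and DESeq2 1.42.0 5690 and 2611. In data simulated for this comparison, with 199 of 15480 genes shifted by a log2 fold change of 2, limma called 91.5% of them. In the real data 51.4% of the genes tested were called, so the simulation does not test the joint scaling of tissues that differ so widely.

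Groups and replicate numbers came from the sample titles, and p-values measure the spread between these samples. Exon lengths and positions came from GENCODE M21, which held 55480 of 55573 genes. Members and gene lists were chosen with earlier results of these data known. Named were every TAM gene, in each other list up to 4 genes called in each direction with the largest difference and up to 3 of like level with the smallest, and the 10 largest differences in each direction; some of these genes are not reported here. A further 42 genes, the gene pairs, the promoters shown and the ocular surface and lens lists were chosen after their values had been seen. Intervals and floors cover counting error or sample spread as stated, and genes that share reads with near copies, such as *Lyz2* and Lyz1, are uncertain. Alternatives were other scalings, pseudocount, filter, tools, a replicate block and subsets of the libraries.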

Additional observations from a re-analysis of the deposited data

Results flagged for a closer look

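Among the 6 RPE libraries, a single library stood far from the others, by the gap to its nearest neighbour as a share of the range, for 5 of 263 genes and list sums, and chance alone sets apart about 1 in 20. *Mitf* was highest in replicate 3, at 102 CPM against 87.5 to 92.2 in the others. *Ctss* was highest in replicate 4, at 18.1 CPM against 12.5 to 14. *Abcg1* was highest in replicate 5, at 48.2 CPM against 25.1 to 32.3. *Clec4d* was lowest in replicate 4, at 0 CPM against 0.174 to 0.222, and *Ptprc* was lowest in replicate 6, at 2.08 CPM against 2.90 to 3.20. The floor of 3 reads is 0.209 CPM in replicate 4, the library with the fewest reads, so the gap of *Clec4d* lies near the floor. Each of these genes kept its side of the thresholds when that library was left out.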

How the results depend on the processing

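Of 233 named genes, 199 kept their side of the threshold under every alternative, and no called gene changed direction. Of the genes not called, 21 changed sign under upper-quartile scaling, 9 with RPE replicates 5 and 6 only and 8 with replicates 4 to 6 only, and at most 3 under any other alternative. Upper-quartile scaling moved the median log2 fold change of all genes to -0.589 and gave 5339 genes higher in BMDMs. Under it *Rab34* (0.89), *Naaa* (0.72), *Laptm4a* (0.86), *Abca2* (0.56), *Cpt1a* (1.03) and *Ctsh* (0.51) were no longer called, and *Rac1* (-1.54), *Rab7* (-1.55), *Tpp1*, *Ppt1*, *Ppt2*, *Fnip1*, *Cd47*, *Itgb5*, *Psap*, *Ctsl*, *Atp6v1a* and *Atp6v0e* became higher in BMDMs. The share of called genes higher in RPE was 68.9% with total-read scaling and 67.3% with median-of-ratios scaling. Without the fold threshold, 5935 genes were higher in BMDMs, 22 lysosomal genes were higher in RPE and 85 in BMDMs, and 12335, 12743 and 12518 genes had the same direction in V1, V2 and V3. Without a filter on low values 20502 genes were of like level, a count that includes the low genes the filter removes. With RPE replicates 5 and 6 only, which had the lowest ocular surface sums, 53 phagocytic and 60 lysosomal genes were higher in BMDMs and 17 and 11 in RPE, *Ctsh* was not called (0.70) and *Atp6v0e* was called (-1.42). With replicates 1 to 4 only, which had the lowest rod sums, the counts were 50, 51, 16 and 13. Both subsets were chosen after seeing the data. Leaving out each library in turn changed the call of *Ctsh* alone.

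The replicate numbers are shared between tissues but do not pair them: the deviations of same-numbered samples correlated at -0.02, 0.011 and 0.003. With the replicate number as a block, 5349 genes were higher in RPE and 2643 in BMDMs, and no named gene changed its call.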
